A study of Mus musculus with 6 samples.

Results

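The G1 cyclins, the cyclin-dependent kinases (CDKs) that they switch on and the inhibitors of these kinases were examined in RNA-Seq data from regulatory T cells (Tregs) with or without the zinc finger protein Zfp335. Tregs are the CD4+ T cells, marked by Foxp3, that hold immune responses in check. The 10 genes, Ccnd2, Ccnd3, Ccne1, Ccne2, Cdk2, Cdk4, Cdk6, Cdkn1b, Cdkn2c and Cdkn2d, were chosen by symbol, and all 10 were found among the 13709 gene rows of the count table. The data came from 6 samples of CD4+YFP+CD25+ Tregs of 2-week-old C57BL/6 mice, 3 of the WT genotype (Foxp3Cre) and 3 of the KO genotype (Foxp3Cre Zfp335fl/fl). Both genotypes carry Cre and YFP made from the Foxp3 locus, so the designed difference is the floxed Zfp335 allele, which Cre deletes in Foxp3-expressing cells. The study reports that KO mice develop lethal autoimmune inflammation early in life. It attributes the loss of Treg signature genes and the gain of inflammatory features in KO Tregs to this inflammation. The state of the host may thus differ between the genotypes too, and its part in the results here was not tested. The labels named both lymph nodes and spleen as the tissue, and no source said whether mice were pooled for a sample, so p-values measure the spread between these samples.

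Cells commit to DNA synthesis in G1, the phase between division and replication. D cyclins, which are made in response to growth signals, pair with Cdk4 or Cdk6 and begin to phosphorylate the retinoblastoma protein, which frees E2F transcription factors to switch on S phase genes, the E cyclins among them. E cyclins pair with Cdk2 and complete this step. INK4 inhibitors, such as Cdkn2c and Cdkn2d, bind Cdk4 and Cdk6, whereas the Cip/Kip inhibitor Cdkn1b (p27) binds cyclin-CDK complexes, mainly those of Cdk2, and keeps resting T cells out of cycle. In T cells Ccnd2 and Ccnd3 are the main D cyclins and Cdk6 is an abundant CDK. Much of this control acts on protein stability and binding, which RNA-Seq does not measure.

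The libraries held 32032631 to 40728419 counts. Zfp335, the deleted gene, was at 94.3 to 103 CPM (counts of a gene scaled to a common library size, with edgeR's TMM factors) in WT and 37.0 to 40.2 CPM in KO, so its level followed the labels. WT replicate 3 stood apart from the other WT samples on the second principal component, at -58.9 against 22.1 and 34.4, and had 199 CPM of the proliferation marker Mki67 against 441 and 445 CPM. For most of the 10 genes, several ratios and most lists of related genes, results are also given without this sample. Other values come from all 6 samples, and some of them shift when it is left out. The summed level of 7 T cell and Treg markers, each present, was 3973 to 5073 CPM in WT and 3482 to 3595 CPM in KO, and Foxp3 (54.3% of WT) and Cd3d (66.5%) were called lower. The others were not called. Cd3g was at 71.4% of WT, Cd3e at 73.0%, Ctla4 at 75.5% and Il2ra at 92.3%. Cd4 went the other way, at 120% of WT. Among these markers the groups overlapped for Il2ra only, and 53.8% of all genes tested had groups that did not overlap. WT replicate 3 also stood apart in Foxp3, at 1190 CPM against 738 and 642 CPM, and in Ctla4, at 920 CPM against 507 and 509 CPM. Of the other marker lists, 5 monocyte and macrophage genes summed to 16.7 to 28.0 CPM in WT and 47.4 to 55.0 CPM in KO, with 4 of 5 called higher. Among 3 NK cell genes, 2 were called higher, and the sum of all 3 was 3.59 to 5.83 CPM in WT and 14.9 to 16.2 CPM in KO. The largest part of the KO sum was Eomes, with means of 2.31 CPM (WT) and 11.3 CPM (KO). Means of Klrb1c were 1.65 and 3.48 CPM, and those of Ncr1, which was not called, were 0.384 and 0.940 CPM. Of all genes tested, 11.9% were called higher and 12.5% lower. Summed levels in WT and KO were 16.7 to 19.3 and 11.5 to 12.1 CPM for 5 B cell genes, 9.32 to 13.2 and 12.0 to 12.7 CPM for 2 CD8 genes, 1.67 to 4.18 and 2.79 to 3.46 CPM for 4 dendritic cell genes, and 22.9 to 98.9 and 42.3 to 47.8 CPM for 4 globin genes. Of these, the B cell gene Cd79b was called lower and Cd8a was called higher. Their part in the results on the G1 genes was not tested.

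In KO Tregs the E cyclins Ccne1 and Ccne2 rose 3.25-fold and 3.37-fold, the INK4 inhibitor Cdkn2c rose 2.16-fold and Cdk6 rose 1.52-fold. These 4 of the 10 genes passed the test, all higher in KO, where a call needed a fold change above 1.5, p under 0.05 and an adjusted p under 0.1. Over the 13594 genes tested, 24.4% were called, 11.9% higher and 12.5% lower. No G1 gene was called lower. With the adjusted p alone and no fold cutoff, 6 of the 10 passed higher and 2 lower, against 22.7% and 24.3% of all genes. The 3 WT and 3 KO values did not overlap for 8 of the 10, 6 higher and 2 lower, and for 53.8% of all genes (26.2% higher and 27.6% lower), so lack of overlap was common in these data. The median log2 fold change of the 10 genes was 0.45, and that of all genes tested was -0.04. When WT replicate 3 was left out, 4 of the 10 genes were called, all higher. That fit called 3667 of the 13663 genes it tested, 1862 higher and 1805 lower. These totals also apply to the counts without this sample that are given for the lists below. In bulk samples, a change in the share of cycling cells and a change in RNA per cell cannot be told apart.

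**Figure D1:**
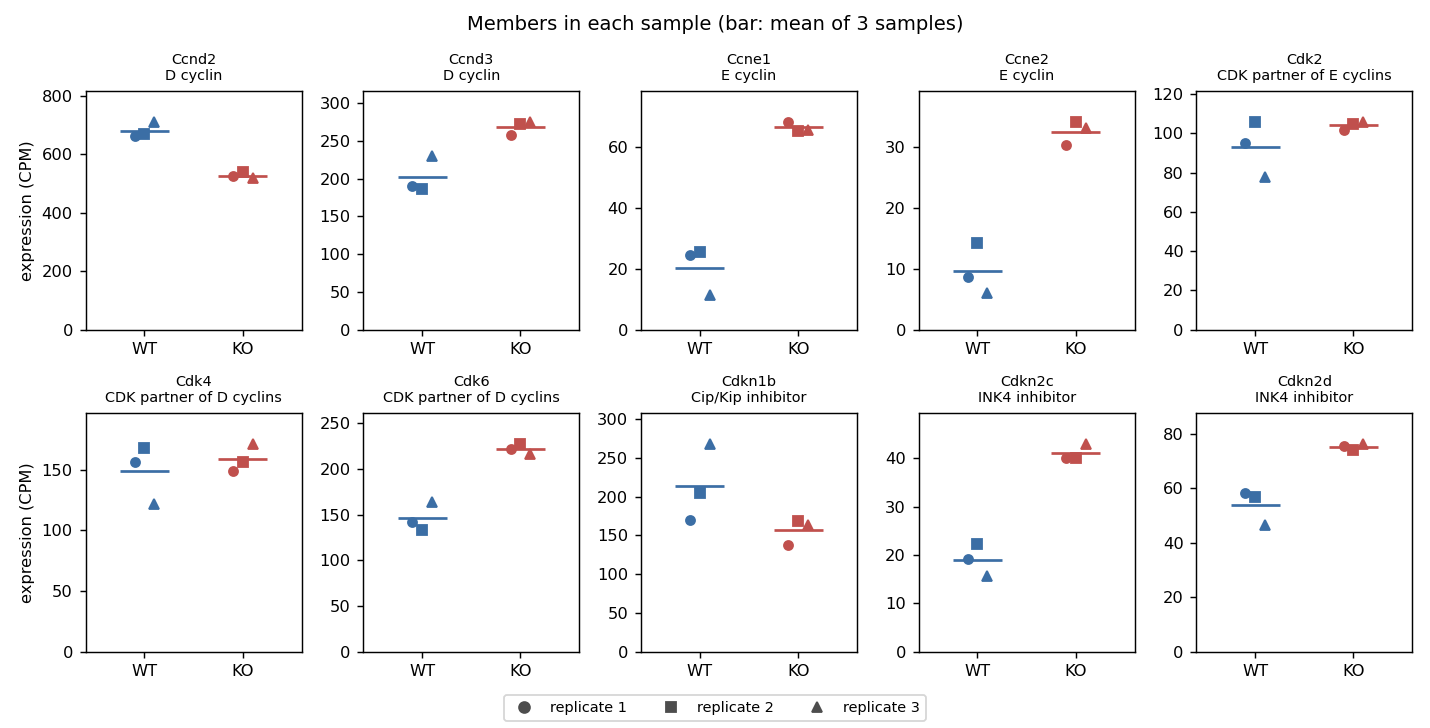
Expression in CPM (axes from 0) of each of the 10 G1 genes in the 3 WT (blue) and 3 KO (red) samples, with horizontal bars at the means. WT and KO points overlap for Cdk2 and Cdk4 only, and WT replicate 3 (blue triangle) lies apart from the other WT samples for Ccne1 (11.4 CPM) and Cdkn1b (267 CPM).

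RefSeq promoter windows of GRCm38.p6, from 250 bases before to 50 after a transcription start, were given for 8 of the 10 genes, in 10 windows, and not for Ccnd2 or Ccne2. Each was searched on both strands for an E2F motif (TTT, then a pair of bases that are each C or G, then CGC), the CHR motif TTTGAA of late cell cycle genes and, added after the sequences had been seen, the E-box CACGTG, to which Myc binds. The motifs do not overlap one another in these windows. An E2F match stood in 1 of 10 windows, that of Cdk2, against 2.26% of the 32851 windows of the RefSeq table and 3.85% of the 13443 windows of genes tested. None of the 10 held the CHR motif, which was in 17.9% and 12.9% of these windows. E-boxes were in 3 of the 10 windows, against 7.15% and 9.56%. Cdk4 held 4 of them, a number that 8 of the 32851 windows reached, Cdk6 held 1 that starts 220 bases before the start site, and the downstream of the 2 starts of Cdkn2c held 1 at base 35, counted from the start site as base 1. Matches thus stood in genes that were called and in genes that were not. Below, the 250 bases before the start are shown 5′ to 3′ for Ccne1 and for the upstream start of Cdkn2c, the called genes with the largest rises that had a window, and for Cdk2, which holds the E2F match, and Cdk4, which holds the most E-boxes. Capitals mark the E2F match in Cdk2, which starts 140 bases before the start site, and the E-boxes in Cdk4, which start 172, 118, 98 and 11 bases before it. A match is a run of letters, not a site shown to be bound, and a window without one says nothing about the factor.
Ccne1, chr7:38107491-38107740, minus strand: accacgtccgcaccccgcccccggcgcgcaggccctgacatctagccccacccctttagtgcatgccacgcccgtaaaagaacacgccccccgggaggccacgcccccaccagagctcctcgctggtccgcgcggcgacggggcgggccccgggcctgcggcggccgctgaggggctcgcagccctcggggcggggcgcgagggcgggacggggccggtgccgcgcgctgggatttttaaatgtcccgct
Cdkn2c, chr4:109666757-109667006, minus strand: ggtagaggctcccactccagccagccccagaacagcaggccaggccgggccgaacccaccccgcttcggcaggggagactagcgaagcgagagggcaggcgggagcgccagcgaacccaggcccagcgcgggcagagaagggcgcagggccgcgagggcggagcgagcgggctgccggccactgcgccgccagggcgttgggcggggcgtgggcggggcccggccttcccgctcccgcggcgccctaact
Cdk2, chr10:128705052-128705301, minus strand: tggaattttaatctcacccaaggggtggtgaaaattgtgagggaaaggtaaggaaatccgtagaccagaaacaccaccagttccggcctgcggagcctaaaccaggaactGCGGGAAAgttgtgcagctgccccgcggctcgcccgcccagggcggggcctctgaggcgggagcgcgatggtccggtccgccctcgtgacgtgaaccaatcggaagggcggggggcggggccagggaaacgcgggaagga
Cdk4, chr10:127063285-127063534, plus strand: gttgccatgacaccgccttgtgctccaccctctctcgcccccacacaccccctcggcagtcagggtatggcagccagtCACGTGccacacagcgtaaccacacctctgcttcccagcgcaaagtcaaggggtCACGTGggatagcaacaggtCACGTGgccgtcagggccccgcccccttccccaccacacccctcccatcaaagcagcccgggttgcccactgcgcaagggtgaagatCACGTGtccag

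The E cyclins had the largest fold changes of the 10 genes. Ccne1 (chromosome 7, 38097984 to 38107490, minus strand) was at 24.4, 25.5 and 11.4 CPM in WT and 68.3, 65.4 and 65.8 CPM in KO. Ccne2 (chromosome 4, 11190433 to 11204779, plus strand) was at 8.67, 14.2 and 6.07 CPM in WT and 30.3, 34.1 and 33.0 CPM in KO. For both genes each KO sample was above the highest WT sample, and WT replicate 3 was the lowest of all. Mean Ccne1 rose from 20.4 ± 7.87 CPM to 66.5 ± 1.54 CPM (SD, n = 3 per group), with a log2 fold change of 1.70 (SE 0.27, edgeR adjusted p = 0.00208). Mean Ccne2 rose from 9.63 ± 4.13 CPM to 32.5 ± 1.94 CPM, with a log2 fold change of 1.75 (SE 0.27, edgeR adjusted p = 0.00195). With WT replicate 3 left out, the log2 fold changes were 1.41 and 1.51. Part of the exons of Ccne2, 609 of 3495 bases, overlaps Ints8 on the other strand, so its counts are uncertain to that extent. Ints8 itself, at a WT mean of 39.6 ± 4.70 CPM and a KO mean of 42.2 ± 2.74 CPM, was not called.

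The spread of the E cyclins was unequal between the genotypes. In WT the coefficient of variation over samples was 38.5% for Ccne1 and 42.9% for Ccne2, the highest of the 10 genes, and in KO it was 2.31% and 5.98%. WT replicate 3 held 45.5% of the mean of the other WT samples for Ccne1 and 53.2% for Ccne2. Mki67 in the same sample was the lowest of the WT values as well, and in KO it was 1568, 1549 and 1507 CPM. Within each sample the ratio of Ccne2 to Ccne1 per transcript length was 0.236, 0.369 and 0.356 in WT and 0.295, 0.346 and 0.334 in KO, so the values overlapped and the mean log2 difference was 0.05.

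Cdk2, the kinase that the E cyclins activate (chromosome 10, 128697938 to 128705051, minus strand), was at 95.1, 106 and 77.8 CPM in WT and 102, 105 and 106 CPM in KO. The KO values lay inside or at the top of the WT range. Mean levels were 92.9 ± 14.1 CPM (WT) and 104 ± 2.05 CPM (KO), a log2 difference of 0.17 with a 95% interval of -0.09 to 0.42 (edgeR adjusted p = 0.269), and 0.05 when WT replicate 3 was left out. The upper bound lies below the 1.5-fold cutoff. The summed level of the E cyclins per transcript length, relative to that of Cdk2, was 0.518, 0.539 and 0.323 in WT and 1.42, 1.37 and 1.35 in KO. In every WT sample Cdk2 mRNA exceeded that of the summed E cyclins on this scale, and in every KO sample it was below it. The difference in log2 ratio was 1.62, and 1.38 without WT replicate 3.

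**Figure D2:**
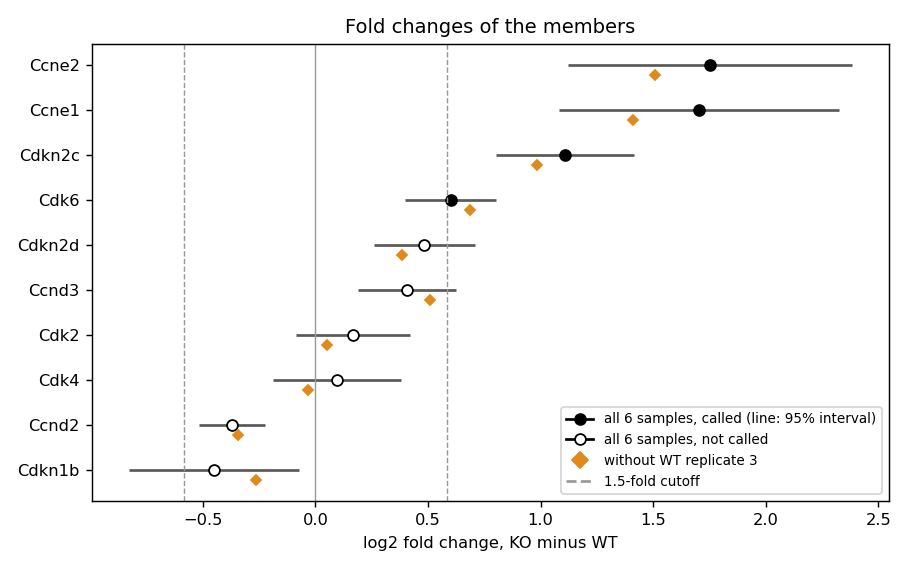
Log2 fold change (KO minus WT) of each gene from all 6 samples with its 95% interval (circles, filled where called) and without WT replicate 3 (orange diamonds), with dashed lines at the 1.5-fold cutoff. Ccne1, Ccne2 and Cdkn2c lie clear of the cutoff, Cdk6 lies on it at 0.60, and only Cdk2 and Cdk4 have intervals that include 0.

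The D cyclins lay on opposite sides of 0. Ccnd2 (chromosome 6, 127125162 to 127152188, minus strand) was at 661, 670 and 710 CPM in WT and 524, 538 and 518 CPM in KO. Ccnd3 (chromosome 17, 47505051 to 47599689, plus strand) was at 191, 186 and 230 CPM in WT and 258, 273 and 275 CPM in KO. Neither gene's groups overlapped, but neither passed the fold cutoff. The Ccnd2 mean went from 680 ± 25.8 CPM (WT) to 527 ± 10.1 CPM (KO), or 77.4% of WT, with a log2 fold change of -0.37 (SE 0.06, edgeR adjusted p = 0.00299). For Ccnd3 the means were 202 ± 24.3 CPM (WT) and 268 ± 9.21 CPM (KO), with a log2 fold change of 0.41 (SE 0.09, edgeR adjusted p = 0.0109). Ccnd3 shares 361 of 8775 exon bases with Bysl on the other strand, and Bysl was called higher, from 27.0 ± 3.17 to 42.7 ± 2.33 CPM. A Ccnd3 pseudogene, Ccnd3-ps, is annotated too, so the counts of Ccnd3 are uncertain to the extent that reads were shared.

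The balance between the D cyclins differed between the genotypes, and their sum differed little. Per transcript length, the ratio of Ccnd3 to Ccnd2 was 0.473, 0.455 and 0.532 in WT and 0.807, 0.831 and 0.869 in KO. Every KO sample was above every WT sample, and the mean ratio was 0.487 ± 0.040 in WT and 0.836 ± 0.032 in KO. The sum of both D cyclins was 160 ± 10.3 CPM per kb in WT and 153 ± 3.02 CPM per kb in KO, or 95.6% of WT. These groups overlapped, but this depended on using the longest transcript. By mean transcript length the KO sum was 93.6% of that in WT, and the groups lay apart, with KO lower. Ccnd1, the remaining D cyclin, named here after its value had been seen, was not called and had 0.150 to 0.883 CPM in WT samples and 0.369 to 1.29 CPM in KO samples.

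Of the kinases that D cyclins activate, Cdk6 rose and Cdk4 overlapped between genotypes. Cdk6 (chromosome 5, 3341004 to 3531008, plus strand) was at 142, 133 and 164 CPM in WT and 222, 227 and 216 CPM in KO. All 3 KO values exceeded the WT values. The mean rose from 146 ± 15.8 CPM to 222 ± 5.35 CPM, with a log2 fold change of 0.60 (SE 0.09, edgeR adjusted p = 0.00145). This is just above the 1.5-fold cutoff, and the call was lost without WT replicate 1 (0.58), without WT replicate 2 (0.53), without KO replicate 2 (0.58) and with library totals in place of TMM (0.56), while the direction did not change.

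Cdk4 (chromosome 10, 127063535 to 127067288, plus strand) was at 156, 168 and 122 CPM in WT and 149, 157 and 171 CPM in KO. The KO values fell within the WT range or just above it. Its means were 149 ± 24.1 CPM (WT) and 159 ± 11.1 CPM (KO), a log2 difference of 0.10 with a 95% interval of -0.19 to 0.38 (edgeR adjusted p = 0.572). The difference was -0.032 when WT replicate 3 was left out. Cdk4 shares 641 of 3249 exon bases with Tspan31 on the other strand, whose means were 31.8 ± 4.98 CPM (WT) and 46.2 ± 3.11 CPM (KO). Cdk2 shares 34 of 6219 exon bases with Pmel, which was under 1 CPM in both genotypes. Summed per kb of the longest transcript, Cdk4 and Cdk6 were at 85.1 ± 10.4 CPM per kb in WT and 96.7 ± 5.11 in KO. The groups overlapped on this scale, where KO was at 114% of WT. With the mean transcript length KO was at 119% of WT, and every KO sample was above every WT sample. The ratio of Cdk6 to Cdk4 overlapped too, at 0.162, 0.141 and 0.240 in WT and 0.265, 0.258 and 0.225 in KO.

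Both INK4 inhibitors were higher in every KO sample than in any WT sample, and Cdkn2c was called. Cdkn2c (p18, chromosome 4, 109660876 to 109666756, minus strand) was at 19.1, 22.3 and 15.7 CPM in WT and 40.0, 40.1 and 42.9 CPM in KO. Cdkn2d (p19, chromosome 9, 21288459 to 21291421, minus strand) was at 58.4, 56.7 and 46.4 CPM in WT and 75.6, 74.1 and 76.2 CPM in KO. The KO samples lay close together for both genes, while WT replicate 3 was the lowest. Mean Cdkn2c rose from 19.0 ± 3.32 CPM to 41.0 ± 1.65 CPM, with a log2 fold change of 1.11 (SE 0.13, edgeR adjusted p = 0.000633), the smallest adjusted p of the 10 genes. Cdkn2d had means of 53.8 ± 6.50 CPM in WT and 75.3 ± 1.09 CPM in KO, and its log2 fold change of 0.48 (SE 0.10, edgeR adjusted p = 0.00608) was under the fold cutoff. Fits without WT replicate 3 gave 0.99 and 0.38.

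The INK4 sum per transcript length was 45.5 ± 5.71 CPM per kb in WT and 69.5 ± 1.32 CPM per kb in KO. Set against the sum of Cdk4 and Cdk6, the kinases that INK4 proteins bind, it was 0.552, 0.523 and 0.530 in WT and 0.754, 0.711 and 0.695 in KO. These ratios did not overlap and differed by 0.43 on the log2 scale. WT replicate 3 did not stand apart in this ratio. The share of Cdkn2c within the pair also differed, since the ratio of Cdkn2c to Cdkn2d was 0.203 ± 0.020 in WT and 0.314 ± 0.010 in KO.

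Cdkn1b, the p27 gene (chromosome 6, 134920401 to 134925525, plus strand), was at 170, 205 and 267 CPM in WT and 137, 169 and 164 CPM in KO. The lowest WT sample and the highest KO sample were almost level, and WT replicate 3 was the highest. Means were 214 ± 49.4 CPM (WT) and 157 ± 17.0 CPM (KO), or 73.1% of WT, with a log2 fold change of -0.45 and a 95% interval of -0.83 to -0.07 (edgeR adjusted p = 0.0615). It was not called, since it was under the fold cutoff. The value depended on single samples. It was -0.26 without WT replicate 3 and -0.59 without WT replicate 1, where Cdkn1b was called lower. Without KO replicate 1, 2 or 3 it was -0.36, -0.51 and -0.48. The edgeR adjusted p in these fits was 0.200, 0.104 and 0.125, so none stayed under 0.1.

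Cdkn1b was also set against the genes whose products it binds. Per transcript length, the ratio of Cdkn1b to the summed E cyclins was 2.47, 2.58 and 7.63 in WT and 0.682, 0.843 and 0.819 in KO. In WT the inhibitor's mRNA was above that of the E cyclins in each sample, and in KO it was below it in each sample. The log2 difference was -2.23, and -1.70 without WT replicate 3. The ratio of Cdkn1b to Cdk2 was 1.28, 1.39 and 2.46 in WT and 0.966, 1.16 and 1.11 in KO, so these groups lay apart by a small margin. The log2 difference was -0.61, and -0.31 with WT replicate 3 left out.

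**Figure D3:**
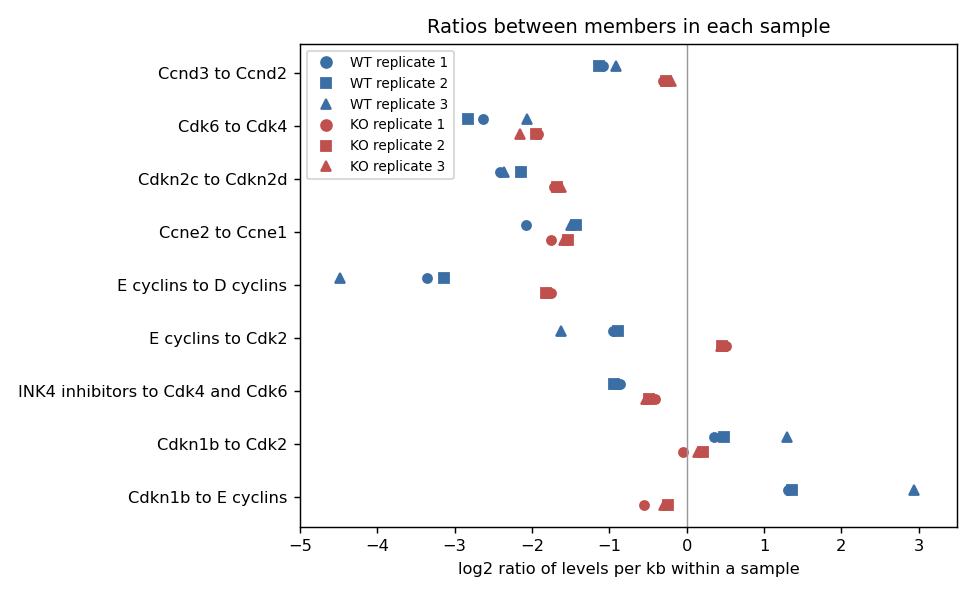
Log2 ratios between G1 genes or groups of them, from levels per kb of transcript within each sample, for WT (blue) and KO (red) samples. The groups lie apart for 7 of the 9 ratios and overlap for Cdk6 to Cdk4 and Ccne2 to Ccne1, and WT replicate 3 (blue triangle) is farthest out where summed E cyclins or Cdkn1b are compared with other genes. Several ratios share genes, so they are not separate results. Groups did not overlap for 53.8% of all single genes, and no such share was computed for ratios.

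WT replicate 3 divided the 10 genes. Relative to the mean of the other WT samples it was lower by 1.14 for Ccne1, 0.91 for Ccne2, 0.41 for Cdk4, 0.40 for Cdkn2c, 0.37 for Cdk2 and 0.31 for Cdkn2d on the log2 scale. It was higher by 0.51 for Cdkn1b, 0.29 for Ccnd3, 0.25 for Cdk6 and 0.09 for Ccnd2. For 7 of these genes, Ccnd2, Ccne1, Ccne2, Cdk2, Cdkn1b, Cdkn2c and Cdkn2d, this deviation was away from the KO samples and widened the difference between the genotypes. For Ccnd3 and Cdk6 it was toward the KO samples, and their log2 fold changes without this sample were larger, at 0.51 and 0.69. For Cdk4 the KO mean was level with the other WT samples. The 6 genes that were lower in it were lower together with Mki67 and Top2a, which was at 80.8 CPM against 233 and 222 CPM. The part of this in the results was not tested.

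The levels of the 10 genes were compared with each other only per length, as CPM per kb of the longest GENCODE M21 transcript. In WT the order was Ccnd2 at 107, Cdk4 at 72.4, Ccnd3 at 52.4, Cdkn1b at 47.0, Cdkn2d at 37.8, Cdk2 at 28.5, Cdk6 at 12.7, Ccne1 at 10.2, Cdkn2c at 7.69 and Ccne2 at 3.20 CPM per kb. Neighbors from Cdk4 to Cdkn2d and from Cdk6 to Cdkn2c in this order had overlapping sample values. In KO the order was Ccnd2 at 83.3, Cdk4 at 77.4, Ccnd3 at 69.6, Cdkn2d at 52.9, Cdkn1b at 34.4, Ccne1 at 33.3, Cdk2 at 31.9, Cdk6 at 19.2, Cdkn2c at 16.6 and Ccne2 at 10.8 CPM per kb. Here only Ccnd2 with Cdk4 and Cdkn1b with Ccne1 overlapped. The order depends on which transcript is used. With the mean transcript length, Ccnd3 stood above Cdk4, and Cdk6 above Cdkn2d and Cdk2, in both genotypes. In WT the sample values of Cdk6 and Cdkn2d overlapped on this scale. In KO Ccne1, at 76.4 CPM per kb, then stood above Cdkn2d at 66.9 and Cdkn1b at 54.0.

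**Figure D4:**
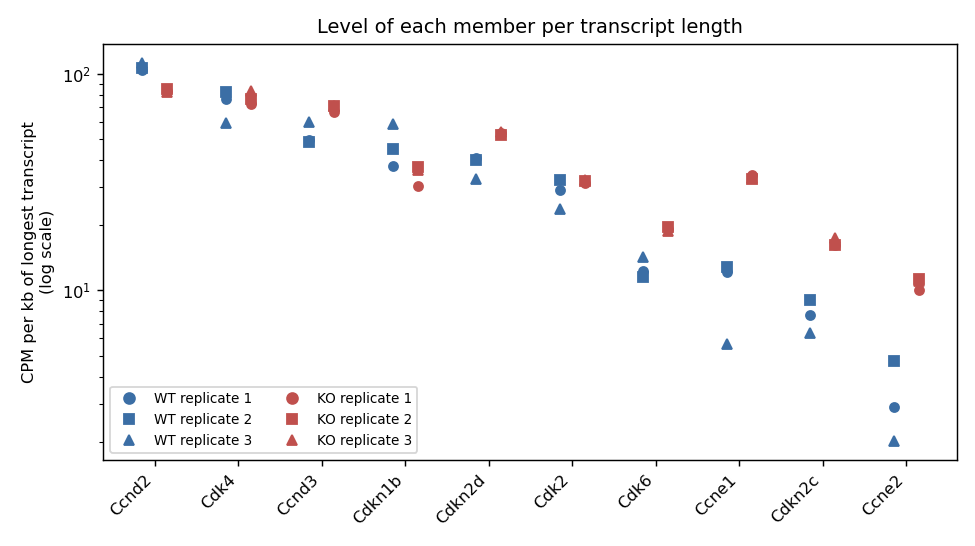
Level of each G1 gene per kb of its longest transcript (CPM per kb, log scale) in WT (blue) and KO (red) samples, ordered by the WT mean. Ccnd2 is highest in both genotypes and Ccne2 lowest, and Ccne1 goes from place 8 in WT to place 6 in KO, near Cdk2 and Cdkn1b.

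By role, the summed E cyclins differed most between the genotypes and the summed D cyclins least. The summed E cyclins were at 13.4 ± 5.09 CPM per kb in WT and 44.1 ± 0.158 CPM per kb in KO, or 328% of WT, and 271% without WT replicate 3. Per sample, the ratio of summed E cyclins to summed D cyclins was 0.098, 0.113 and 0.045 in WT and 0.295, 0.283 and 0.287 in KO. D cyclin mRNA thus exceeded E cyclin mRNA in all 6 samples, by a smaller margin in KO.

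The wider cell cycle machinery was described from lists of genes that regulate the 10 genes, act beside them or answer to E2F. Of 15 other cyclins, CDKs and inhibitors, 9 were called higher and none lower, against 11.9% and 12.5% of all genes tested, with a median log2 fold change of 1.87. With the adjusted p alone, 9 passed higher and 2 lower, against 22.7% and 24.3% of all genes. The largest rises were in inhibitors. Cdkn2a, the INK4a and Arf locus, went from 0.438 ± 0.316 to 10.5 ± 1.47 CPM (log2 fold change 4.56), Cdkn1a (p21) from 8.18 ± 5.91 to 58.0 ± 3.19 CPM (2.83) and Cdkn2b (p15) from 0.265 ± 0.172 to 1.57 ± 0.393 CPM (2.54). Ccna2, the cyclin of S phase and G2, rose from 43.0 ± 18.0 to 186 ± 6.81 CPM, and the mitotic cyclin Ccnb1 from 22.3 ± 9.30 to 85.6 ± 1.84 CPM. Cdkn3, a phosphatase that acts on CDKs, had a log2 fold change of 2.04. When WT replicate 3 was left out, 9 genes of this list were called higher and 1 lower. The list held 4 other inhibitors of the Cip/Kip and INK4 families, of which 3 rose, and the remaining member, Cdkn1c, had means of 6.04 ± 0.392 CPM (WT) and 4.03 ± 0.247 CPM (KO; edgeR adjusted p = 0.0329), just under the fold cutoff. It is named here after its value had been seen.

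Among 17 genes for the activity and turnover of CDKs, 8 were called higher and 1 lower, against the same 11.9% and 12.5% (median log2 fold change 0.53). With the adjusted p alone, 11 passed higher and 2 lower, against 22.7% and 24.3% of all genes. Skp2, the ubiquitin ligase subunit that targets Cdkn1b for degradation, rose from 7.22 ± 0.638 to 15.4 ± 1.35 CPM, and its cofactor Cks1b from 17.3 ± 5.78 to 56.1 ± 2.10 CPM. The log2 fold change was 2.05 for Cdc25c, a phosphatase that activates Cdk1, 1.30 for Fbxo5, an inhibitor of the anaphase-promoting complex, and 0.96 for Cks2. Usp28, a deubiquitinase, fell from 74.8 ± 9.66 to 37.3 ± 1.66 CPM. Of 17 pocket protein, E2F and DREAM genes, 8 were called higher and 1 lower (median 0.52), again against 11.9% and 12.5%. With the adjusted p alone, 10 passed higher and 3 lower, again against 22.7% and 24.3%. The activator E2Fs rose, with log2 fold changes of 1.12 for E2f1, 1.06 for E2f2 and 0.74 for E2f3. The atypical repressors E2f7 and E2f8 rose by 1.91 and 2.14. Mybl2, a partner of the late cell cycle program, rose by 2.06. The gene called lower was E2f5, a repressor E2F, from 8.79 ± 1.28 to 5.78 ± 0.125 CPM, named after its value had been seen. Leaving out WT replicate 3, 6 genes of this list were called higher and 1 lower, and E2f3 (0.56) was among those no longer called.

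All 25 E2F target genes of S phase entry were called higher, against 11.9% of all genes tested, with a median log2 fold change of 1.28. The largest rises were in Rrm2 (2.46) and Rrm1 (1.72), the subunits of ribonucleotide reductase, in the replication factors Mcm10 (1.92), Cdc6 (1.87) and Cdc45 (1.59), and in Uhrf1 (1.69), which maintains DNA methylation. Leaving out WT replicate 3, 24 of the 25 were called. The fold changes of Ccne1 and Ccne2, themselves known E2F targets, lay within the range of this list. Mki67 had a log2 fold change of 2.09 and Top2a, which untangles replicated DNA, of 1.80. The monocyte, macrophage and NK cell markers above moved in the same direction as these lists, and their part in the result was not tested.

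**Figure D5:**
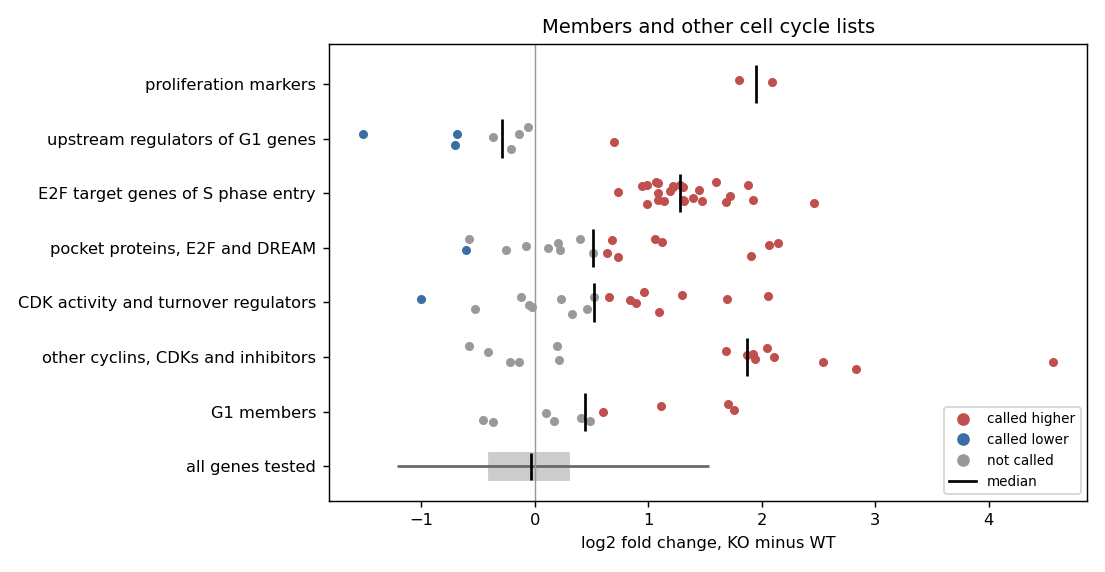
Log2 fold changes (KO minus WT) of the 10 G1 genes and of each cell cycle list, 1 point per gene, colored by call, with black lines at the medians. The bottom bar shows all 13594 genes tested (box from the 25th to the 75th percentile, line from the 5th to the 95th). The median is 0.45 for the G1 genes, 1.28 for the 25 E2F targets and -0.04 for all genes.

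The gene list of upstream regulators, which bind or control promoters of G1 genes, held 8 members, of which 1 was called higher and 3 lower, against 11.9% and 12.5% of all genes tested (median -0.29). With the adjusted p alone, 1 passed higher and 5 lower, against 22.7% and 24.3%. Foxo1 and Foxo3, transcription factors that activate Cdkn1b and hold T cells in rest, fell from 312 ± 15.3 to 194 ± 8.99 CPM (log2 fold change -0.68) and from 96.7 ± 10.9 to 59.4 ± 1.66 CPM (-0.70). Bcl6, a repressor that can act on Ccnd2, fell from 37.2 ± 13.1 to 13.1 ± 1.02 CPM (-1.51). Smad3, which carries TGF-β signals, rose from 87.9 ± 6.67 to 143 ± 4.09 CPM (0.70). Myc, a factor that binds E-boxes, named here after its value had been seen, had means of 195 ± 8.35 CPM (WT) and 187 ± 2.40 CPM (KO), a log2 difference of -0.06 (edgeR adjusted p = 0.506). Without WT replicate 3 the list again had 1 gene called higher and 3 lower. Of these factors only RNA levels were measured, and no link between them and the 10 genes was tested.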

How the data were processed

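The study's methods name SOAPnuke for read filtering, HISAT2 for alignment to mm10 and StringTie for quantification. Raw whole-number counts per gene, not normalized, were deposited by the authors. The annotation, the use of strand and how whole numbers were made were not given in the sources used here. Reads of genes that overlap on opposite strands may therefore be split between them. The table held 13709 rows, none with fewer than 60 counts summed over samples, and library totals of 32032631 to 40728419.

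Counts were filtered with filterByExpr (minimum count 10, which removed 115 rows), scaled by TMM and tested with edgeR 4.0.16 (quasi-likelihood F-test, Benjamini-Hochberg adjustment over 13594 genes, R 4.3.3), with all 6 samples. A call needed a fold change above 1.5, p under 0.05 and an adjusted p under 0.1, the study's cutoffs. SEs came from the log2 fold change and the square root of F, and 95% intervals from the t distribution of the same fit. DESeq2 1.42.0, other scalings, filters and cutoffs, fits without each sample, a replicate block and offsets for GC content and length were alternatives. The fit was tested on simulated data. Positions and promoters came from RefSeq for GRCm38.p6, the assembly of mm10, and lengths from GENCODE M21. Ratios and sums per length were not tested.

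The 10 genes and the lists were chosen with earlier results of these data known. Named were the 10 genes, Zfp335, Mki67, Top2a, up to 6 called genes per list by fold change and the 3 genes most like the member with the largest change, of which 1 is not reported here.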

Additional observations from a re-analysis of the deposited data

How the results depend on the processing

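Of 15 alternatives, 14 left between 3 and 4 of the 10 genes called, and with an adjusted p under 0.05 and no fold cutoff 7 were called (6 higher, 1 lower). That setting added Ccnd2 (-0.37), Ccnd3 (0.41) and Cdkn2d (0.48), and called 5244 genes in all (2610 higher, 2634 lower). With edgeR's glmTreat test against a fold of 1.5, 1686 genes were called (941 higher, 745 lower), 5 of the pocket protein, E2F and DREAM list and 1 of the upstream regulators, and Cdk6 (0.60, adjusted p = 0.764) was not. Cdk6 was not called with library totals either (0.56). The cause of these changes is the cutoff itself, except for library totals, where it was not tested. Without single samples the log2 fold change was 0.53 to 0.69 for Cdk6, -0.59 to -0.26 for Cdkn1b, called only without WT replicate 1, and -0.032 to 0.19 for Cdk4, which turned sign only without WT replicate 3. The log2 ratio of Ccne2 to Ccne1 went from -0.16 to 0.16, below 0 without WT replicate 1 (-0.16) and without KO replicate 2 (-0.0005), and was untested. Ccne1, Ccne2 and Cdkn2c were called in all 15. Replicate numbers did not pair the samples (correlations of deviations 0.038, 0.040 and -0.012). With a replicate block 3190 genes were called, 3100 of them shared, and 4 of the 10. With 3 samples per group, differences smaller than the intervals given were not resolved.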

Other observations

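Over the 6 samples, log2 CPM of Hells, a chromatin remodeler of replicating cells (Pearson r 0.9989), and Nccrp1 (0.9987) followed that of Ccne2, the G1 gene with the largest change, most closely among the genes reported here. Hells rose from 57.0 ± 14.8 to 130 ± 2.42 CPM and Nccrp1 from 0.200 ± 0.278 to 6.20 ± 1.05 CPM (SD, n = 3). The 6 points fall into the 2 genotypes and share libraries, so r is a description, and 869 of 13593 genes had r above 0.95 with Ccne2.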
